A study of Homo sapiens with 16 samples.

Results

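The m6A regions of 10 genes of the TGF-beta pathway were examined in the prostate cancer lines C4-2B and MDV-R. The genes were the ligand TGFB1, the receptors TGFBR1 and TGFBR2, the signal transducers SMAD2, SMAD3 and SMAD4, the inhibitory SMAD6 and SMAD7, and the repressors SKI and SKIL. A region was assigned to a gene when the summit of its strongest peak, or its midpoint where it held no summit, lay inside the span of that gene in GENCODE release 44 on hg38. This rule found 42 of the 36970 regions in the merged region list, and 41 of them held a peak in at least 1 of the 8 peak lists. The remaining region, region 6 of SMAD6 in an intron, was called in no list.

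MeRIP-seq enriches RNA fragments that carry N6-methyladenosine with an antibody (the IP library) and sequences the unenriched RNA beside it (the input library). C4-2B is an androgen-independent human prostate cancer line that is sensitive to the prostate cancer drug enzalutamide, and MDV-R was derived from it by passage until it was resistant. Both lines are labelled wild type, have the same serum-containing medium in the labels, and were harvested on day 3, with 4 IP and 4 input libraries each. The study's methods state that MDV-R was kept in enzalutamide and name no drug for C4-2B, so that drug exposure and line cannot be told apart. MDV-R is 1 derived line, so that a difference between the lines belongs to these lines, and nothing in the labels says whether replicates came from separate cultures, so that p-values measure the spread between these libraries. The titles of the MDV-R libraries carry the name of another line, used as a bladder cancer model, while their cell line field names MDV-R. All 7 prostate luminal markers examined, among them KLK3 and HOXB13, held a called region in both lines. Of 6 markers chosen for the bladder line, UPK2, UPK3A and VIM held a called region in both lines, and UPK1A, UPK1B and CAV1 held none.

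TGF-beta ligands bind a type II receptor, TGFBR2, which phosphorylates the type I receptor TGFBR1. The activated receptor phosphorylates SMAD2 and SMAD3, which join SMAD4 and enter the nucleus to regulate transcription. SMAD6 and SMAD7 block this relay at the receptor or the SMAD complex, and SKI and SKIL bind SMAD complexes and repress their target genes. In prostate epithelium the pathway restrains growth, and in advanced tumors it is known for roles in invasion and plasticity. In mRNA, m6A is typically found in long internal exons and around the stop codon, in the sequence context DRACH (A, G or T, then A or G, then AC, then A, C or T), of which GGAC is the most common core.

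The sequences below show the motif nearest to the strongest summit in the exonic region of each gene that was called in the most lists, taking the one with the higher mean rank by p-value where regions tied. Each is 25 nt of the hg38 reference on the gene's own strand, 5′ to 3′ in DNA letters, with GGAC in capitals, or with DRACH in capitals where GGAC was more than 50 nt from the summit. The feature named is that of the summit, not of the motif. In SMAD7 region 3 the summit lies at -4 nt from the start codon. The motif, 13 nt downstream of that summit, lies past the start codon in the coding sequence.
TGFB1 region 9, 5′UTR, chr19:41353447-41353471, minus strand: cccccattccGGACcagccctcggg
TGFBR1 region 1, 3′UTR, chr9:99149456-99149480, plus strand: ggatttctttGGACccaggaaacag
TGFBR2 region 1, CDS, chr3:30671911-30671935, plus strand: ccattgagctGGACaccctggtggg
SMAD2 region 1, CDS, chr18:47841887-47841911, minus strand: tcatctgaatGGACctctacagtgg
SMAD3 region 3, 3′UTR, chr15:67190795-67190819, plus strand: taagtgagcaGAACAggtagtatta
SMAD6 region 1, CDS, chr15:66703563-66703587, plus strand: gctccctgctGGACgtggcggagcc
SMAD7 region 3, 5′UTR, chr18:48950403-48950427, minus strand: cgcatgttcaGGACcaaacgatctg
SKI region 1, CDS, chr1:2229500-2229524, plus strand: tccagtgcctGGACtgccgcctcat
SKIL region 2, CDS, chr3:170360748-170360772, plus strand: tagctccacaGAACTcactcagact
Regions are numbered along the chromosome within each gene, so that in TGFB1, SMAD2 and SMAD7, on the minus strand, the numbers run from 3′ to 5′. For SMAD4 no sequence is shown, since its exonic summit lies in an exon that it shares with another coding gene (ENSG00000267699).

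On the gene's own strand, GGAC was found no more than 50 nt from the summit in 13 of the 23 exonic regions of these genes, or 56.5% (95% Wilson interval 36.8 to 74.4%), and in 45.5% of the 19379 exonic regions of the whole list. DRACH, which includes GGAC when A, C or T follows it, lay there in 19 of 23, or 82.6%, and in 87.9% of all exonic regions. In the 10 intronic regions GGAC was found in 6 and DRACH in 10, and over all intronic regions in 33.8% and 84.9%. The 4 exonic regions without DRACH in this window were regions 1 and 2 of SMAD3, in its 5′UTR, and regions 4 and 7 of SMAD6. Motif occurrence is a description of the letters in these windows.

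Depth was recovered from the peak statistics. In units of mega-tags (M), the IP libraries held between 0.864 and 1.21 M, with no gap between the lines, whereas the input libraries held 0.901 to 1.23 M in C4-2B and 1.60 to 2.97 M in MDV-R. The depth of the input therefore cannot be told apart from the line. The C4-2B lists held 13191 to 24746 peaks and the MDV-R lists 23880 to 30645, and C4-2B replicate 1 stood apart with the fewest peaks. Counts of calls below are given with and without this list where they rest on it.

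Of the 191974 peaks in the 8 lists, 190 had their summit inside the 10 genes, and each of these overlapped a merged region. Numbers per list were 12, 28, 21 and 19 in C4-2B replicates 1 to 4 and 26, 28, 26 and 30 in MDV-R replicates 1 to 4. The C4-2B mean was 20 ± 6.58 peaks and the MDV-R mean 27.5 ± 1.91 (SD, n = 4), a difference of 7.5 that did not pass (exact two-sided permutation test, p = 0.114). As a share of all peaks in a list, the mean was 0.094% for C4-2B and 0.103% for MDV-R (exact two-sided permutation test, p = 0.286). Much of the difference sat in the span of TGFB1, which in GENCODE release 44 runs from chr19:41301587 to 41353922 on the minus strand and crosses HNRNPUL1, an RNA-binding protein gene, and CCDC97, both on the plus strand. The MANE Select transcript of TGFB1 starts only at 41330323 on this axis, and 8 of the 9 regions in the span had their summit in HNRNPUL1 or CCDC97. Without peaks in these 2 genes the difference was 3.75 peaks (exact permutation test, p = 0.229), and the share of the list turned to a lower value in MDV-R, by -0.00425 percentage points (exact permutation test, p = 0.514).

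Feature classes within each gene were 11 CDS, 7 3′UTR, 6 5′UTR and 10 intronic regions, after the 8 regions in HNRNPUL1 or CCDC97 were set aside. Of all regions on chromosomes 1 to 22, X and Y, 24.9% lay in CDS, 13.5% in 3′UTR, 5.65% in 5′UTR and 34.6% in introns. On the spliced MANE transcripts, some summits lay in a long 5′ exon: SMAD6 region 1 in exon 1 of 4 (1840 nt), SMAD7 region 3 in exon 1 of 4 (1154 nt), SKI region 1 in exon 1 of 7 (1417 nt) and SKIL region 2 in exon 2 of 7 (1731 nt). Others lay near the stop codon. Counted from it, with negative values upstream, these summits lay at -64 nt in SMAD2 region 1, -113 nt in SMAD6 region 7, -144 nt in SKIL region 4 and -231 nt in SMAD7 region 1, and at 156 nt in TGFBR1 region 1 and 262 nt in SMAD3 region 3. The remaining exonic summits lay elsewhere, among them those of SKI regions 6 and 7 and SMAD3 regions 4 to 6, at 1125 to 4304 nt past the stop codon.

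**Figure D1:**
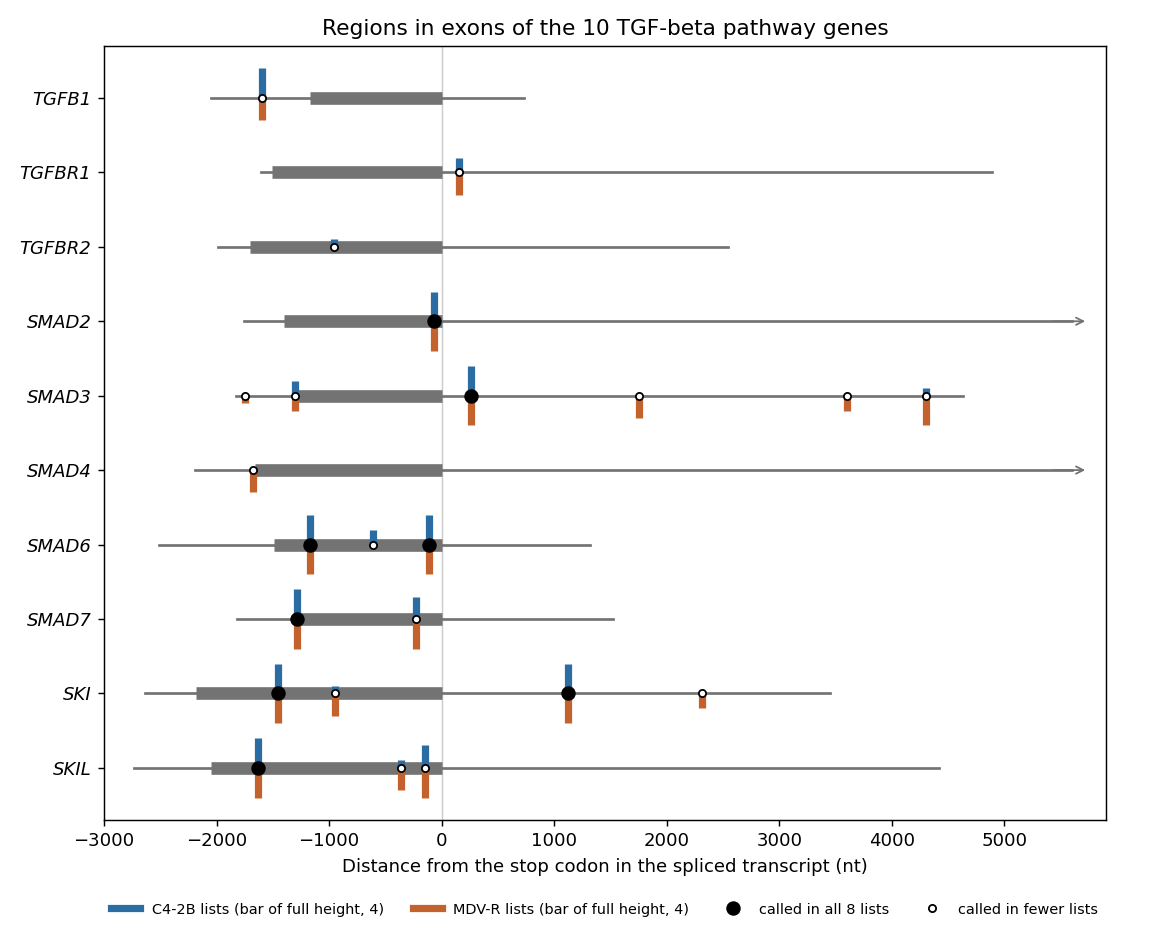
Summits of regions in exons of the 10 genes on their spliced MANE transcripts (thick bar, coding sequence; thin line, untranslated), as distance from the stop codon in nt on the x axis; SMAD2 and SMAD4 run on past the right edge. Bars above and below the line count the C4-2B and MDV-R lists with a peak, filled circles mark regions called in all 8 lists, and in SMAD3 the 3 regions farther into the 3′UTR show taller MDV-R bars.

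Of the 41 called regions, 9 (22%) were called in all 8 lists, against 25.9% of the 36076 called regions of the series. They lay in 6 genes: 3 in SKI, 2 in SMAD6 and 1 each in SMAD2, SMAD3, SMAD7 and SKIL, so that both inhibitory SMADs and both SMAD repressors were among them. TGFB1, TGFBR1, TGFBR2 and SMAD4 had no such region. None of the 8 regions in HNRNPUL1 or CCDC97 was among the 9, so that without these 8 the count was 9 of 33 called regions. Without C4-2B replicate 1, 13 regions were called in all remaining lists. Leaving out a list can only raise this number or keep it, and over the series it rose from 9327 to 12314.

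No region of the 10 genes was called in all 4 C4-2B and no MDV-R list, a pattern found in 1.22% of called regions of the series. The reverse, all 4 MDV-R and no C4-2B list, was found in 3.68% of the series and in 1 region here, region 7 of the TGFB1 span (chr19:41322350-41322833), whose summit lies in the coding sequence of CCDC97. With Fisher's exact test this region reached an unadjusted p = 0.0286, the smallest that 4 against 4 lists can give, and no region of the 36076 passed after Benjamini-Hochberg adjustment (lowest adjusted p = 0.584 by Fisher's exact test, with 1766 regions at an unadjusted p under 0.05).

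Calls leaned to MDV-R in 6 of the 41 regions, which were called in at least 3 more MDV-R than C4-2B lists. That is 14.6%, beside 10.6% over the series, and no region leaned to C4-2B by as much, beside 3.73% over the series. In SMAD3 these were region 4 (0 C4-2B and 3 MDV-R lists) and region 6 (1 and 4 lists), both in the 3′UTR. In SKI it was the intronic region 5 (0 and 3 lists), in SMAD4 region 2 (0 and 3 lists), and in the TGFB1 span regions 2 and 7, in HNRNPUL1 and CCDC97 (1 and 4, and 0 and 4 lists). With all regions in HNRNPUL1 or CCDC97 set aside, 4 of 33 called regions leaned to MDV-R in this way. Over the 41 regions the number stayed at 6 without C4-2B replicate 1, and was 2 when each list was limited to the size of the smallest. Without any single MDV-R list it was 1 or 2, but the margin of 3 lists was kept there. A region then had to be called in all 3 remaining MDV-R lists and in no C4-2B list, so that the number could only fall or stay.

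**Figure D2:**
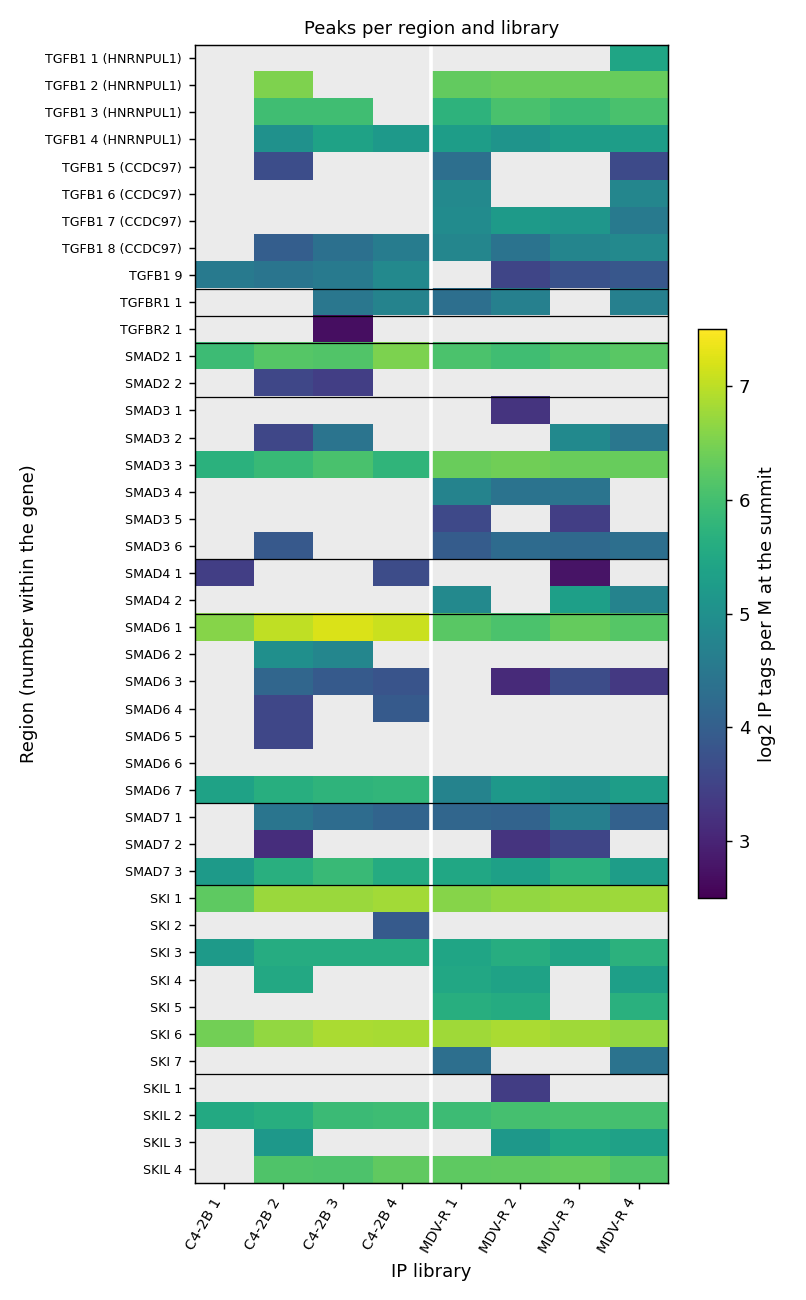
Each row is 1 of the 42 regions and each column an IP library, colored by log2 IP tags per M at the summit of the strongest peak; gray cells hold no called peak, and names in parentheses give the other gene in which the summit lies. The 9 rows filled across all 8 columns are the regions called in every list, and C4-2B 1 has the most gray cells.

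The following values describe a peak. IP tags are the whole tags stacked at its summit, given per M IP tags of the library, and depend on the amount of the transcript as well as on its methylation. The local background is the input signal around the summit in multiples of the average of its library. It is the largest over several windows, so that it cannot fall below 1 and only approximates transcript abundance. The fold enrichment is the ratio of the IP signal to this background, both in tags and with 1 added to each. Where the background is low, the added 1 makes the fold enrichment smaller than the plain ratio. Differences in IP tags and background therefore do not add up to the difference in fold enrichment. Less RNA per cell and fewer cells with that RNA cannot be told apart in these bulk samples.

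Over the 9327 regions called in all 8 lists, the median difference, MDV-R minus C4-2B, was 0.44 in log2 fold enrichment, 0.06 in log2 IP tags per M and -0.48 in log2 local background. Values for single regions are given as measured, to be read against these medians, and for the called regions of the 10 genes also relative to them. By limma with Benjamini-Hochberg adjustment over the 9327 regions, fold enrichment was higher in MDV-R in 3.02% and lower in 0.214%, IP tags per M were higher in 20.8% and lower in 14.8%, and local background was higher in 1.8% and lower in 13.4%. For fold enrichment and IP tags this fit pooled the spread between libraries over all regions. A small p there rests on the pooled spread, not on the spread of that region alone. With each library centered on its median, the calls were 84 higher and 165 lower for fold enrichment (282 and 20 as measured), 2321 and 2726 for IP tags (1937 and 1384), and 616 and 910 for background (168 and 1253). Among the 9 regions of the pathway genes, 1 was called for fold enrichment (higher), 3 for IP tags (1 higher and 2 lower) and 3 for background (all lower). Fold enrichment was higher and background lower in MDV-R in 9 of 9 regions by sign, with medians of 0.79 and -0.99, beside 84.2% and 75.7% of all regions. Relative to the median of all regions, fold enrichment lay above it in 7 of 9 and background below it in 7 of 9. The depth of the input moves with the line, as given above, and its part in the background and in the fold enrichment was not tested.

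**Figure D3:**
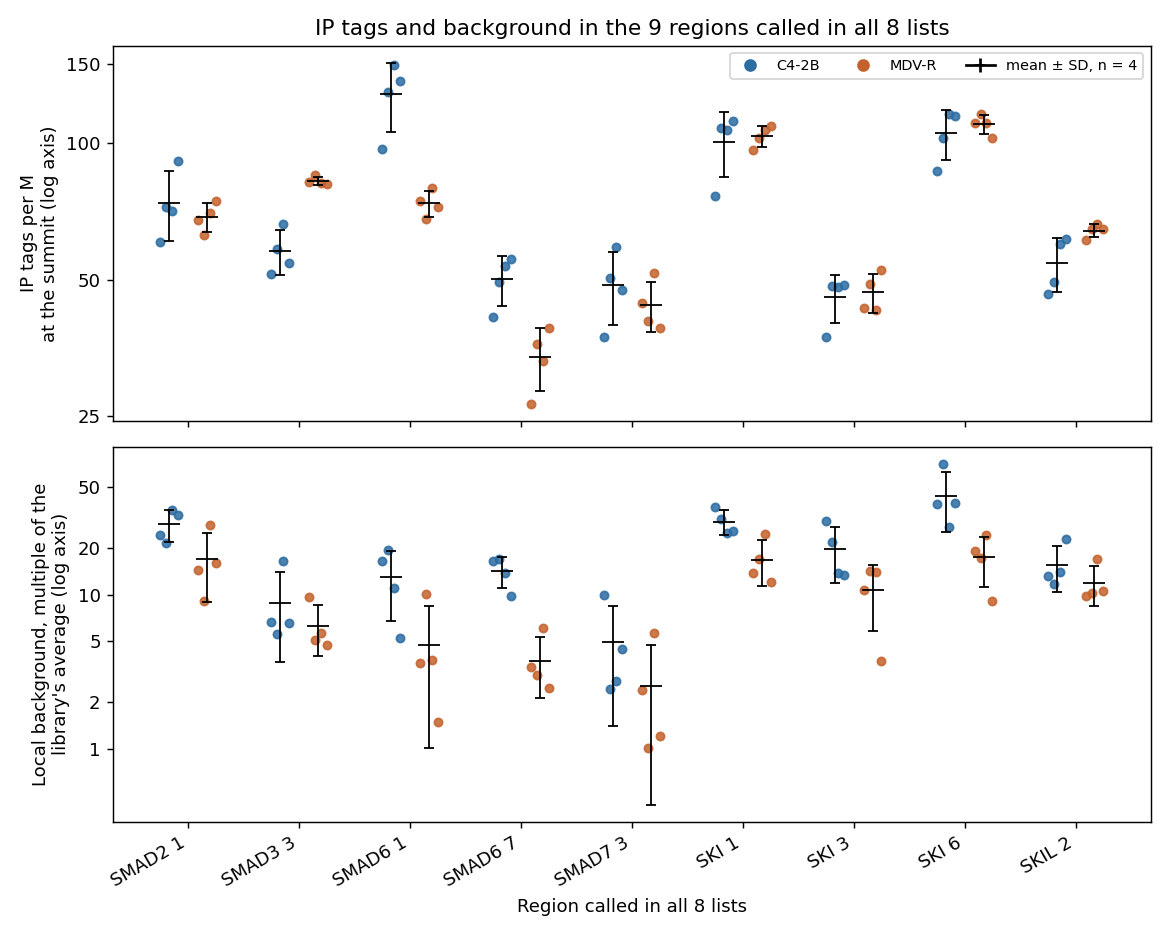
IP tags per M at the summit (top) and local background in multiples of the library average (bottom), both on log axes, for the 9 regions called in all 8 lists; points are libraries and bars the mean ± SD (n = 4). In the top panel the lines do not overlap in SMAD3 3, SMAD6 1 and SMAD6 7, and in the bottom panel they do not overlap in SMAD6 7, SKI 1 and SKI 6. Of the 9327 such regions of the series, the lines did not overlap in 2976 for IP tags and in 1644 for background.

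TGFB1 encodes the best-known ligand of the pathway, which is secreted in a latent form. Within its MANE Select transcript it held 1 region, region 9 at chr19:41353185-41353994, in the 5′UTR of exon 1, which was called in 4 lists of C4-2B and 3 of MDV-R. IP tags per M were 23.2, 21.8, 23.6 and 29.0 in C4-2B replicates 1 to 4 and 11.7, 13.6 and 14.5 in MDV-R replicates 2, 3 and 4. The C4-2B libraries were all above the MDV-R libraries, at 24.4 ± 3.14 (SD, n = 4) and 13.3 ± 1.44 (SD, n = 3). When regions called in at least 3 lists of each line were tested, with the missing library left out of the fit, the log2 difference was -0.87 (SE 0.23, adjusted p = 0.00139 by limma), where the median of all regions was 0.04, and no value is known for MDV-R replicate 1. The local background was 3.28 ± 1.93 in C4-2B (SD, n = 4) and 1.16 ± 0.276 in MDV-R (SD, n = 3), where it was near its lowest possible value. Its difference was -1.26 in log2 (SE 0.52), which did not pass (adjusted p = 0.129 by limma). The summit also lies in the span of TMEM91 and of an unnamed gene, and peaks called without regard to strand could be shared with them.

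The receptors held little signal. TGFBR1, the kinase that phosphorylates the SMADs, had 1 region in the 3′UTR (chr9:99149102-99149640), called in 2 lists of C4-2B and 3 of MDV-R. IP tags per M at its summit were 22.5 and 26.6 in C4-2B replicates 3 and 4 and 20, 25.5 and 25.7 in MDV-R replicates 1, 2 and 4, and the lines overlapped. TGFBR2, which binds the ligand first, had 1 region in the CDS of exon 4 (chr3:30671839-30672115), called in C4-2B replicate 3 alone with 6 IP tags at the summit. Its fold enrichment of 5.34 ranked at the 5.32 percentile of that list by p-value. A region missing from a list shows only that no peak passed the threshold there at this depth.

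SMAD2 and SMAD3 are the receptor-activated transducers. SMAD2 region 1 (chr18:47841618-47842168) covers the end of the coding sequence in exon 11 of 11, and had 60.5, 72.3, 70.7 and 91.5 IP tags per M in C4-2B replicates 1 to 4 and 67.7, 62.7, 70.1 and 74.7 in MDV-R replicates 1 to 4. The lines overlapped, and the log2 difference of -0.09 had a 95% interval from -0.38 to 0.21 (adjusted p = 0.691 by limma). Its background was -0.84 lower in log2 in MDV-R (SE 0.39, adjusted p = 0.142 by limma), or -0.36 relative to all regions. The other region, in an intron, was called in 2 C4-2B lists and no MDV-R list, with 12 and 10 IP tags at the summit.

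SMAD3 held 6 regions, of which 4 lay in the 3′UTR of exon 9. Region 3 (chr15:67190266-67191421), next to the stop codon, had 51.4, 58.4, 66.5 and 54.4 IP tags per M in C4-2B replicates 1 to 4 and 82.1, 85.0, 81.8 and 81.4 in MDV-R replicates 1 to 4. All MDV-R libraries were above all C4-2B libraries, with means of 82.6 ± 1.63 and 57.7 ± 6.52 (SD, n = 4). The log2 difference was 0.52 (SE 0.15, adjusted p = 0.00263 by limma), a 1.44-fold rise, and 0.46 relative to all regions. The background of this region did not pass, with a log2 difference of -0.41 (95% interval -1.40 to 0.59, adjusted p = 0.591 by limma). Fold enrichment was 15.9 ± 4.36 over the C4-2B libraries and 27.6 ± 5.64 over those of MDV-R (SD, n = 4), and its log2 difference of 0.81 did not pass (SE 0.36, adjusted p = 0.139 by limma). Farther into the same 3′UTR, the summits of regions 4, 5 and 6 lay 1750, 3602 and 4304 nt past the stop codon. Region 4 (chr15:67191932-67192536) was called in MDV-R replicates 1, 2 and 3 at 26.6, 21.2 and 21.4 IP tags per M and in no C4-2B list. Region 6 (chr15:67194551-67195011) was called in every MDV-R list, at 15.5, 19.1, 18.5 and 20.1, and in C4-2B replicate 2 alone, at 14.9. Region 5 was called in 2 MDV-R lists, with 11 IP tags in each. The 2 regions of the 5′UTR were called in 0 and 2 lists of C4-2B, and in 1 and 2 of MDV-R. Over all 6 regions SMAD3 had 7 calls in C4-2B and 16 in MDV-R. Over the series, 49.7% of regions were called in more MDV-R lists, 18.4% in more C4-2B lists and 31.9% in equally many, and the lean of single genes was not tested.

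SMAD4, the common partner of the other SMADs, held 2 regions. Region 2 (chr18:51046845-51047158) was called in MDV-R replicates 1, 3 and 4, at 28.9, 39.9 and 26.8 IP tags per M, and in no C4-2B list. Its summit lies in a 5′UTR exon of SMAD4 that is also coding in an overlapping gene. Region 1, in an intron, was called in 2 C4-2B lists and 1 MDV-R list, with 7 to 13 IP tags at the summit.

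SMAD6 and SMAD7, the inhibitory SMADs, are themselves induced by the pathway and by BMP signals. SMAD6 held 2 of the 3 regions called for IP tags. Its region 1 (chr15:66702039-66704380), in the coding part of exon 1, had 97.0, 130, 149 and 137 IP tags per M in C4-2B replicates 1 to 4 and 74.4, 68.0, 79.8 and 72.5 in MDV-R replicates 1 to 4. No MDV-R library reached the lowest C4-2B library, and the means were 128 ± 22.2 and 73.7 ± 4.91 (SD, n = 4). The log2 difference was -0.78 (SE 0.14, adjusted p = 2.21e-07 by limma), or -0.84 relative to all regions. In the C4-2B lists this peak ranked between the 97.9 and 99.9 percentile by p-value, and in the MDV-R lists between the 83.0 and 98.4 percentile.

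Region 7 of SMAD6 (chr15:66780715-66781752), at the end of the coding sequence, moved the same way. It had 41.4, 49.5, 53.6 and 55.6 IP tags per M in C4-2B replicates 1 to 4 and 26.6, 36.1, 33.1 and 39 in MDV-R replicates 1 to 4, again without overlap. The log2 difference was -0.57 (SE 0.18, adjusted p = 0.00617 by limma), or -0.64 relative to all regions. Without MDV-R replicate 1 it was -0.47 and no longer passed (adjusted p = 0.0585 by limma). The background fell in both regions. In region 7 it was 16.6, 17.1, 13.8 and 9.85 times the library average in C4-2B replicates 1 to 4 and 3.37, 3.03, 6.05 and 2.47 in MDV-R replicates 1 to 4, a log2 difference of -1.99 (SE 0.47, adjusted p = 0.00532 by limma) and -1.51 relative to all regions. In region 1 it was 13.1 ± 6.32 and 4.74 ± 3.73 (SD, n = 4), with 1 MDV-R library inside the C4-2B range, and its log2 difference of -1.63 (SE 0.55, adjusted p = 0.0434 by limma), or -1.15 relative to all regions, did not pass once libraries were centered on their medians (adjusted p = 0.195 by limma). It was also lost when any library but C4-2B replicate 4 or MDV-R replicate 2 was left out. Both IP tags and background were called lower in MDV-R in these 2 of the 9 regions, and in 7.33% of all 9327 regions. The fold enrichment did not pass in either region: its log2 difference was 0.28 in region 1 (SE 0.35, adjusted p = 0.603 by limma) and 0.79 in region 7 (SE 0.36, adjusted p = 0.159 by limma), or -0.15 and 0.35 relative to all regions. In region 7 it passed without MDV-R replicate 3 (0.92, adjusted p = 0.0491 by limma). In that fit the fold enrichment was called higher in 2046 of 9393 regions of the series, SKI regions 1, 3 and 6 among them.

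Among the weaker regions of SMAD6, regions 2, 4 and 5 were called in 2, 2 and 1 C4-2B lists and in no MDV-R list, at 11.9 to 31.7 IP tags per M. Each of these was called in C4-2B replicate 2, the largest list of its line. The intronic region 3 was called in 3 lists of each line, at 17.8, 15.0 and 13.9 IP tags per M in C4-2B replicates 2 to 4 and 8.5, 12.7 and 10.0 in MDV-R replicates 2 to 4. These did not overlap, but the log2 difference of -0.59 did not pass (SE 0.28, adjusted p = 0.0837 by limma). Over its 7 regions SMAD6 had 16 calls in C4-2B and 11 in MDV-R. Over the series, 18.4% of regions were called in more C4-2B lists, and the lean of single genes was not tested.

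In SMAD7, region 3 (chr18:48949833-48952190), with its summit just before the start codon in exon 1, had 37.3, 50.5, 58.9 and 47.5 IP tags per M in C4-2B replicates 1 to 4 and 44.4, 40.4, 51.6 and 39 in MDV-R replicates 1 to 4. The lines overlapped, and the log2 difference of -0.14 had a 95% interval from -0.48 to 0.20 (adjusted p = 0.578 by limma). Its background had a log2 difference of -1.04 (SE 0.54, adjusted p = 0.186 by limma), or -0.56 relative to all regions, and passed without MDV-R replicate 3 (-1.53, adjusted p = 0.0417 by limma). In that fit the background was called lower in 3162 of 9393 regions of the series, SMAD2 region 1, SMAD6 region 7 and SKI regions 1 and 6 among them. Region 1 (chr18:48921166-48922047), in the coding part of exon 4, was called in 3 lists of C4-2B and 4 of MDV-R at 17.4 to 21.8 and 16.7 to 25.3 IP tags per M. Among regions called in at least 3 lists of each line, its background difference of -1.24 in log2 did not pass (SE 0.47, adjusted p = 0.103 by limma). Region 2, in an intron, was called in 1 list of C4-2B and 2 of MDV-R. Whether SMAD6 and SMAD7 differed from each other was not tested.

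SKI, a proto-oncogene, and its relative SKIL, also called SnoN, encode repressors that bind SMAD complexes, and 4 of the 9 regions called in every list were theirs. SKI region 1 (chr1:2228168-2229737, coding part of exon 1) had 76.3, 108, 107 and 112 IP tags per M in C4-2B replicates 1 to 4 and 96.5, 103, 107 and 109 in MDV-R replicates 1 to 4. Apart from C4-2B replicate 1, which was lower, the libraries covered the same range. SKI region 6 (chr1:2306322-2308705), in the 3′UTR, had 87.0, 103, 116 and 115 and then 111, 116, 111 and 103. The log2 differences in IP tags were 0.06 (95% interval -0.21 to 0.33, adjusted p = 0.777 by limma) and 0.07 (95% interval -0.19 to 0.34, adjusted p = 0.708 by limma), and relative to all regions both lay within 0.01 of 0.

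The background of SKI region 6 was lower in MDV-R. It was 39, 70.8, 27.5 and 39.3 times the library average in C4-2B replicates 1 to 4 and 19.2, 17.4, 24.4 and 9.16 in MDV-R replicates 1 to 4, without overlap. The log2 difference was -1.33 (SE 0.39, adjusted p = 0.0217 by limma), or -0.85 relative to all regions. Its fold enrichment was 7.5 ± 3.05 over the C4-2B libraries and 17.3 ± 5.42 over those of MDV-R (SD, n = 4), a log2 difference of 1.25 (SE 0.36, adjusted p = 0.0327 by limma), or 0.81 relative to all regions. It was the only region of the 10 genes called for fold enrichment, and with libraries centered on their medians it was not called (adjusted p = 0.117 for fold enrichment and 0.0606 for background, by limma). The call for fold enrichment was also lost when any library but C4-2B replicate 3 or MDV-R replicate 3 was left out, with log2 differences from 1.00 to 1.48 over the 8 fits. In region 1 the background was 37.1, 31.3, 25.1 and 25.9 in C4-2B replicates 1 to 4 and 13.8, 17.2, 24.7 and 12.1 in MDV-R replicates 1 to 4, and neither it (adjusted p = 0.117 by limma) nor the fold enrichment (adjusted p = 0.154 by limma) passed. The intronic SKI region 3 (chr1:2302711-2303395), called in all 8 lists, had 45.7 ± 5.59 IP tags per M over the C4-2B libraries and 46.9 ± 4.62 over those of MDV-R (SD, n = 4).

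Among the weaker SKI regions, region 5 (chr1:2305784-2306125, intron) was called in MDV-R replicates 1, 2 and 4 at 49.9, 47.8 and 51.3 IP tags per M and in no C4-2B list. Region 4, in exon 4, was called in 1 list of C4-2B and 3 of MDV-R, and region 7, farther into the 3′UTR, in 2 MDV-R lists. SKIL region 2 (chr3:170359519-170361267, CDS of exon 2) had 46.4, 49.5, 60 and 61.4 IP tags per M in C4-2B replicates 1 to 4 and 61.0, 64.8, 66.2 and 64.7 in MDV-R replicates 1 to 4. The lines overlapped by a narrow margin, and the log2 difference of 0.25 did not pass (95% interval -0.06 to 0.56, adjusted p = 0.219 by limma). SKIL region 4 (chr3:170391983-170392542), at the end of the coding sequence, was called in every list but that of C4-2B replicate 1, at 68.6 to 77.6 IP tags per M in C4-2B and 70.3 to 79.8 in MDV-R.

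**Figure D4:**
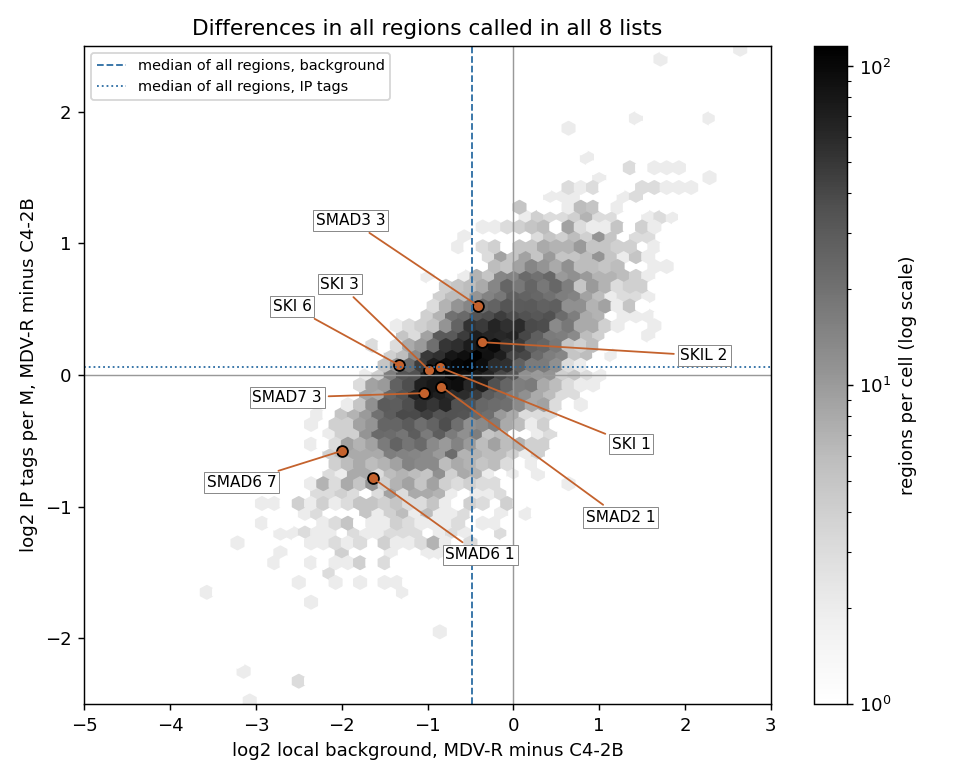
Difference in log2 IP tags per M (y axis) against the difference in log2 local background (x axis), MDV-R minus C4-2B, over the 9327 regions called in all 8 lists; gray hexagons count regions, and circles are the 9 regions of the pathway genes. Both SMAD6 regions sit at the lower left, low on both axes, SMAD3 3 sits above the cloud's center, and SKI 6 sits left of the median background with IP tags near the median.

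A further 38 genes of the pathway (other ligands, receptors, SMADs, regulators and targets) held 75 called regions, of which 28 were called in all 8 lists, beside 25.9% over the series. Of the 28, 6 had higher and 2 lower IP tags per M in MDV-R by limma, beside 20.8% and 14.8% over the series. Fold enrichment was higher in 2 and background lower in 5, beside 3.02% and 13.4%. The regions with higher IP tags lay in ACVR1, ACVR1B and ACVR2A, which are receptors of activins and BMPs, in BMPR2, the type II BMP receptor, in ZFYVE9, which presents SMAD2 to the receptor, and in TGIF1, a SMAD corepressor. Their log2 differences ran from 0.34 to 0.56, with adjusted p between 0.000865 and 0.0372 by limma. None of the 3 BMP SMADs, SMAD1, SMAD5 and SMAD9, had a region that passed for any of the 3 measures.

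The regions with lower IP tags were in GDF15, a stress-induced ligand relative, and PMEPA1, a membrane protein that dampens TGF-beta signals and is also known as an androgen-responsive gene. In the GDF15 coding region (chr19:18388163-18389040), IP tags per M were 157 ± 23.6 over the C4-2B libraries and 81.0 ± 10.9 over those of MDV-R (SD, n = 4), a log2 difference of -0.95 (SE 0.13, adjusted p = 4.23e-11 by limma). The background fell more, by 2.90 on the log2 scale (SE 0.39, adjusted p = 8.12e-06 by limma), and the fold enrichment was higher by 1.71 (SE 0.36, adjusted p = 0.00193 by limma). In the PMEPA1 coding region (chr20:57651881-57652784), IP tags per M were 155 ± 19.6 and 72.6 ± 7.07 (SD, n = 4), a log2 difference of -1.09 (SE 0.14, adjusted p = 3.64e-14 by limma). Its background was 92.1 ± 25.2 times the library average over the C4-2B libraries and 12 ± 2.97 over those of MDV-R (SD, n = 4), and its fold enrichment 5.26 ± 1.78 and 14.8 ± 2.04. Whether these genes differed from SMAD6 in fold enrichment was not tested. The other regions with lower background lay in GDF11 (2 regions) and JUNB, an early target gene.

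Of the 75 regions, 3 were called in all 4 C4-2B and no MDV-R list and 2 in all 4 MDV-R and no C4-2B list, beside 1.22% and 3.68% over the series. The former lay in BMP4, a ligand, in BMPR1B, a type I BMP receptor, and in the 3′UTR of ENG, the coreceptor endoglin. In BMPR1B (chr4:95154388-95155163) the C4-2B libraries had 45.1 ± 7.16 IP tags per M (SD, n = 4), and in BMP4 (chr14:53950065-53950794) 10.9 ± 4.14. The latter lay in an intron of ENG (chr9:127819146-127819981), at 12 ± 4.04 IP tags per M in MDV-R (SD, n = 4), and in the 3′UTR of SMURF2, a ubiquitin ligase of SMADs and receptors (chr17:64545461-64546114), at 17.5 ± 1.24. By Fisher's exact test none passed after adjustment.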

How the data were processed

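RNA of C4-2B and MDV-R cells was sequenced as IP and input libraries, 4 each per line. Reads were aligned by the authors with STAR 2.7.0 (hg38, GENCODE release 39). They used SAMtools 1.10 to keep deduplicated reads with a single alignment, and ran MACS2 3.0.0a6 on every IP replicate against its input (genome size 300 Mb, reads extended to 100 nt). The deposited peak lists give, per peak, the fold enrichment (a ratio), −log10 p-value, −log10 q-value and a score, as the authors made them. The deposited merged list gives region positions alone, how it was merged is not given in the sources used here, and its start and end columns are other values that name no library. The authors' differential test needs read counts, which were not analysed here.

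From the fold enrichment and the −log10 p-value of each peak, the whole number of IP tags at the summit and the local background were solved, and library sizes followed from the lowest recurring background. A whole number of tags solved 100.0% of the peaks examined in each list, against 2.0 to 4.33% with a wrong scale. Depths are thus rebuilt values that rest on these parameters. The Wilson interval covers counting error only, and intervals of differences come from the spread between libraries in limma. A list called a region if any of its peaks overlapped it by 1 bp or more, and the strongest peak gave its values. Regions called in all 8 lists were compared with limma 3.58.1 in R 4.3.3 (log2 values, trend), with Benjamini-Hochberg adjustment over all 9327 regions and a threshold of 0.05. For fold enrichment and IP tags the estimated prior degrees of freedom were infinite, so that the spread was pooled over all regions. Calls per line were compared with Fisher's exact test, adjusted over 36076 regions, and peaks per list with exact permutation over the 70 arrangements, whose smallest p is 0.0286. Steps were tested on simulated data. Features at summits came from GENCODE release 44, also on hg38, with coding sequence taking precedence over UTRs, other exons and introns.

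All 10 genes were described, with values for regions called in all 8 lists or in at least 3 more lists of 1 line. Of the other pathway genes those called in 1 line alone or by limma were named. The members, the list of other pathway genes and the markers were chosen with earlier results of these data known. Another prostate marker of the list is not reported here. Alternatives were other overlaps, thresholds, list sizes and region sets, median centring, a replicate block, the mean over peaks, missing values, no trend, permutation per region, and leaving out each library. The setting aside of HNRNPUL1 and CCDC97, and the alternatives for regions called in at least 3 more MDV-R lists, were chosen after seeing the data.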

Additional observations from a re-analysis of the deposited data

Results flagged for a closer look

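In 10 of 85 groups of 4 libraries, the highest or lowest library lay apart from the other 3 by more than Dixon's 95% critical share of the group's range, a test in which chance flags about 1 in 20. In IP tags per M, C4-2B replicate 1 was low in SKI region 1 (76.3, others 107 to 112) and in SKI region 3 (37.3, others 48.2 to 48.6). In the same measure MDV-R replicate 3 was high in SMAD7 region 1 (25.3, others 16.7 to 17.8), MDV-R replicate 1 was low in region 2 of the TGFB1 span (78.8, others 81.4 to 81.8), and MDV-R replicate 2 was low in region 4 of that span (34.0, others 38.8 to 39). In local background, C4-2B replicate 3 was high in SMAD3 region 3 (16.5, others 5.57 to 6.66) and MDV-R replicate 3 was high in SKIL region 2 (17.2, others 9.78 to 10.6). In fold enrichment, MDV-R replicate 4 was high in SKI region 3 (22.8, others 7.79 to 9.43), MDV-R replicate 3 was high in SMAD7 region 1 (15.0, others 7.59 to 8.82) and low in SKIL region 2 (10.0, others 14.1 to 14.6). MDV-R replicate 3 also had the shallowest input of its line, at 1.60 M tags, and its part in these values was not tested.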

How the results depend on the processing

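IP tags called SMAD6 regions 1 and 7 and SMAD3 region 3 under every alternative fit, with these exceptions. The exact permutation per region called none (0 regions, lowest adjusted p = 0.0895). Its smallest unadjusted p is 0.0286, reached by 2976 regions for IP tags, 1038 for fold enrichment and 1644 for background. These were too few for any region to pass the adjustment, so that the permutations here and below could not decide. SMAD6 region 7 was lost without MDV-R replicate 1. Leaving out each library gave 3 called regions throughout, with TGFB1 region 9 in place of SMAD6 region 7 without that library. For fold enrichment, median centring and permutation gave 0 called regions in place of 1, and leaving out each library gave 0 to 4, with 4 without MDV-R replicate 3, when 2046 regions of the series were higher and 77 lower. For background, centring gave 1 and permutation 0 in place of 3, and leaving out each library gave 1 to 5, again highest without MDV-R replicate 3 (145 higher and 3162 lower in the series). Over the series, calls for fold enrichment numbered 25 to 2123 with a library left out against 302, calls for IP tags 5047 after centring and up to 5564 without C4-2B replicate 1 against 3321, and calls for background 614 to 3307 against 1421, with 0 for each under permutation.

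Replicate numbers did not pair the libraries (correlations of deviations between -0.0749 and 0.0434). The replicate block gave 1, 3 and 3 called regions for fold enrichment, IP tags and background, as without it, and 7.5 peaks per list (exact sign-flip p = 0.25); over the series it called 347, 3638 and 1374 regions.

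Regions called in 1 line alone numbered 0 with lists limited to the smallest size and 0 without HNRNPUL1 and CCDC97, against 1, and 1 to 3 with a list left out. Regions called in at least 3 more MDV-R lists numbered 2 with equal lists and 4 without HNRNPUL1 and CCDC97, against 6, and 1 to 9 with a list left out. The margin of 3 lists was kept there. Without an MDV-R list the number could thus only fall or stay, and without a C4-2B list only rise or stay. The number called in all 8 lists stayed at 9 under 50% overlap, stricter q, equal lists, own union and any overlap with the span, and was 9 to 13 with a list left out. Leaving out a list can only raise this number or keep it. The difference in peaks per list was 4.83 to 10.2 with a list left out, and in the share of the list 0.00449 to 0.015 percentage points; both reached p = 0.0286 by exact permutation without C4-2B replicate 2. The share turned to -0.00425 without HNRNPUL1 and CCDC97. DRACH in place of GGAC gave 82.6%.

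Signs turned only in values that had not been called, among the results examined here. Centring turned fold enrichment of SMAD6 region 1 to -0.12 and of SMAD7 region 3 to -0.07, IP tags of SKI regions 1, 3 and 6 to -0.03, -0.04 and -0.01, and background of SMAD3 region 3 to 0.08 and of SKIL region 2 to 0.12. Without C4-2B replicate 1, fold enrichment of SMAD7 region 3 was -0.05 and IP tags of SKI regions 1, 3 and 6 were -0.07, -0.05 and -0.01; IP tags of SKI region 3 were -0.02 without MDV-R replicate 4, and of SMAD2 region 1 0.02 without C4-2B replicate 4. SKI region 6 lost its call for fold enrichment when any library but C4-2B replicate 3 or MDV-R replicate 3 was left out, its background call when C4-2B replicate 1 or 2 or MDV-R replicate 1, 2 or 4 was, and SMAD6 region 1 lost its background call when any but C4-2B replicate 4 or MDV-R replicate 2 was. With each library left out, fold enrichment of SMAD7 region 3 ran from -0.05 to 0.55, and IP tags of SMAD2 region 1 from -0.18 to 0.02 and of SKI regions 1, 3 and 6 from -0.07 to 0.12, -0.05 to 0.08 and -0.01 to 0.12. The causes were not tested. Depth limits the weak regions, some of which rest on 6 to 13 IP tags.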
